A study of Mus musculus with 4 samples.

Results

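The alpha and beta chains of the T-cell receptor are built from V genes, and the 163 genes whose symbols begin with Trav (alpha, 128 genes) or Trbv (beta, 35 genes) were described here, out of 31053 genes in the count tables. In each T cell, the Trav gene and the Trbv gene with the most unique molecular identifiers (UMIs, each standing for 1 captured transcript) were taken as the genes that the cell used. T cells were sorted from the meninges, the membranes around the brain, and from the choroid plexus, the secretory tissue inside its ventricles, of young (10 weeks) and aged (18 months) female C57BL/6 mice. Each of the 4 libraries pooled 5 mice of an age and tissue, so an age in a tissue was a single pooled sample, and individual mice could not be told apart. No genotype or drug differed between the groups.

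During thymic development each T cell joins a V segment to a joining segment for the alpha chain, and a V, a diversity and a joining segment for the beta chain. The V segment encodes most of the variable domain, including the loops that lean on the MHC molecule, and its last bases start the CDR3 loop that contacts the peptide. CD4 T cells recognise peptides on MHC class II and CD8 T cells on MHC class I, and V genes are known to be used unevenly by these lineages. A clone that divides carries its V genes into all of its daughters, so V usage is a coarse readout of clonal growth.

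The V segment ends of 5 Trbv genes are shown because their shares differed between CD8 and CD4 cells in the same direction in each library, as described further on. The stretches are the last bases of a transcript of each V gene, read 5′ to 3′ on the coding strand from the GENCODE vM21 transcripts (build GRCm38), and capitals mark the bases from the conserved cysteine codon to the transcript end, which open the CDR3. The Trbv31 transcript stops 2 bases before the annotated end of its gene. Trbv12-1 ends at chr6:41113993-41114067 (plus strand), Trbv12-2 at chr6:41119290-41119364 (plus), Trbv14 at chr6:41135541-41135616 (plus), Trbv13-2 at chr6:41121757-41121832 (plus) and Trbv31 at chr6:41557693-41557766 (minus), all in the exon that encodes the variable domain.
Trbv12-1: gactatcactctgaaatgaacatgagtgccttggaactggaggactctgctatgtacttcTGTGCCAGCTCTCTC
Trbv12-2: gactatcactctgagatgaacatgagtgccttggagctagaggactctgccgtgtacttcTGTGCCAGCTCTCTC
Trbv14: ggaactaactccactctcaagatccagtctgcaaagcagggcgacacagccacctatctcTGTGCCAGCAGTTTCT
Trbv13-2: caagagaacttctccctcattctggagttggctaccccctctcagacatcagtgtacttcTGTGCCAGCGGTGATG
Trbv31: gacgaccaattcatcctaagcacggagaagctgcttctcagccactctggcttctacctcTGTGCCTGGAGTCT
The capitals of Trbv12-1 and Trbv12-2 were the same 15 bases, and over their whole transcripts 340 of 385 aligned bases were identical (88.3%). Trbv13-2 lies next to Trbv12-2, with a gap of 2031 bp between the genes. Trbv31 lies apart from the others and points the opposite way.

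The alpha locus of C57BL/6 mice holds long duplications, so that many Trav genes have near-identical copies, marked d and n in their symbols. A stretch of 3 copies of Trav13 is shown for that reason, with capitals at the 6 positions where the copies differ. It was taken from chr14:53545369-53545458 (Trav13-1), chr14:52851710-52851799 (Trav13d-1) and chr14:53162754-53162843 (Trav13n-1), all on the plus strand.
Trav13-1: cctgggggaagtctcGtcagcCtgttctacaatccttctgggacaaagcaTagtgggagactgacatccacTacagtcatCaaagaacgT
Trav13d-1: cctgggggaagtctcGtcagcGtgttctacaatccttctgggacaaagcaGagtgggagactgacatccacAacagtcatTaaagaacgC
Trav13n-1: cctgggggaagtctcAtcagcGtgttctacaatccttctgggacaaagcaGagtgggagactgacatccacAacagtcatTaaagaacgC
Trav13-1 differed from Trav13d-1 at 12 of 331 aligned bases, whereas Trav13d-1 and Trav13n-1 differed at 1. UMIs were split over the copies, with 389 for Trav13-1, 200 for Trav13d-1 and 87 for Trav13n-1, so shares of single Trav genes depend on how the read counter resolved them. For this reason Trav usage is mainly given by subgroup, in which copies such as these 3 are counted together as Trav13.

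The libraries of young mice held 1111 cells (meninges) and 718 (choroid plexus) and those of aged mice 1695 and 1277, with 2295950 to 4262917 UMIs in each. After the filters 4130 T cells, defined by a UMI of Cd3d, Cd3e or Cd3g (the CD3 chains that signal for the receptor), were kept. They numbered 1010 and 620 in young meninges and choroid plexus and 1407 and 1093 in aged, and their median depth was 3203, 2992, 2312 and 2838 UMIs. Any 2 libraries shared at most 2 T-cell barcodes. Any of 4 B-cell genes was seen in 25.9% to 47.6% of T cells but at least 2 of them in 0.569% to 1.49%. Any of 4 natural killer genes was seen in 2.74% to 6.04%, any of 7 macrophage genes in 0.806% to 1.35%, and any of 5 fibroblast genes in 0% to 0.274%. Haemoglobin genes, which mark red blood cell RNA, stood at 216 and 343 CPM (UMIs scaled to the total of the library) in young and aged meninges and at 1.42 and 1.65 CPM in the choroid plexus. Of the choroid plexus epithelium genes Ttr, Kl and Folr1, none had a UMI in the meninges, and Ttr alone was seen in the choroid plexus, in 1.61% and 0.915% of T cells. Naive-cell genes (Ccr7, Lef1, Tcf7, Klf2 and S1pr1) summed to 2711 and 2120 CPM in the young libraries and to 844 and 558 CPM in the aged ones, and 8 effector memory genes to 2685 and 3382 CPM against 10333 and 10631 CPM. The makeup of the T cells therefore moved with age, and its part in the V gene values below was not tested.

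Cells were placed in 3 classes by their coreceptor transcripts. CD4 cells had a Cd4 UMI and no Cd8a or Cd8b1 UMI, and numbered 255, 166, 362 and 230. Series of 4 values here and below follow the order young meninges, young choroid plexus, then aged meninges, aged choroid plexus. CD8 cells had a Cd8a or Cd8b1 UMI and no Cd4 UMI, and numbered 259, 165, 281 and 473. Cells with neither numbered 480, 271, 734 and 357, although the sort was for CD4 and CD8 T cells. The 16 to 33 cells per library with both were left out of the comparisons by class, but are part of the values for all T cells.

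Beta V genes were found in nearly every T cell of the young libraries and in somewhat fewer of the aged ones. A Trbv UMI was seen in 95.4%, 93.2%, 87.3% and 85.7% of the T cells of the 4 libraries. After each cell was thinned to 1000 UMIs the shares were 75.0%, 68.7%, 70.3% and 61.9%, so the order of the libraries did not follow age alone. Alpha V genes were seen in 64.9%, 67.1%, 65.3% and 61.2% of T cells before thinning and in 33.0%, 35.8%, 42.2% and 35.6% after it. A single Trav gene and a single Trbv gene could be called together in 54.8%, 53.9%, 49.7% and 46.6% of cells. Free RNA in the droplets can give UMIs in cells that do not express a gene. Cells without a CD3 UMI, which are fewer and shallower (medians of 826 to 1480 UMIs), had a Trbv UMI in 2 of 12, 2 of 4, 4 of 28 and 1 of 7 cases.

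By class, the unthinned share was lower in the aged library of each tissue. In CD4 cells a Trbv UMI was seen in 96.9% (95% interval 93.9 to 98.6), 93.4%, 89.5% and 88.3% (83.4 to 92.1) of cells in the 4 libraries. In CD8 cells it was 97.3% (94.5 to 98.9), 92.7%, 92.5% and 86.0% (82.6 to 89.0), and in cells with neither coreceptor 93.5%, 93.4%, 83.9% and 82.4%. The neither class lay below both coreceptor classes in 3 of 4 libraries, and its cells were also the shallowest, with medians of 2990, 2811, 2079 and 2357 UMIs. Thinned to 1000 UMIs, the shares were 78.0%, 71.5%, 71.1% and 69.4% in CD4 cells and 77.6%, 71.7%, 69.4% and 61.9% in neither cells. In CD8 cells they were 66.0%, 64.2%, 70.8% and 56.9%, so the thinned share was higher in aged than in young meninges. These exact binomial intervals, like the others below, cover counting error only, since each value came from 1 library.

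All 22 Trbv genes annotated as functional had UMIs, 20102 in all over T cells. Trbv21 alone among them was never the leading gene of a cell, with 5 UMIs. Of 13 Trbv pseudogenes 11 were at 0, and the others were Trbv22 (13 UMIs) and Trbv24 (116 UMIs, the leading gene of 11 cells). Trav genes gave 7497 UMIs in all. Of 108 functional Trav genes 27 were at 0 in every library, and 26 of these 27 hold no window of 50 bases that is not shared with another V transcript. The exception was Trav7n-6, in which 56.6% of windows are unique. Trav genes with UMIs had a median of 50.7% unique windows. Trav12d-2 and Trav12n-2, which are identical to each other, had 0 UMIs, while Trav12-2, 96.9% identical to them and with 70.8% unique windows, had 296. The 35 functional Trav genes with no unique window held 24 UMIs between them. Reads that fit several genes are usually left out of such counts, and a 0 here is therefore no measure of use.

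The level of the transcript depended on which Trbv gene a cell carried. Cells that used Trbv15 had a median of 8 UMIs of it, and those with Trbv1 or Trbv17 had 7. At the other end were Trbv2 and Trbv5, with a median of 2 UMIs. Trbv15 stayed above Trbv2 in each library. Its mean UMIs per called cell were 10.5, 10.4, 8.93 and 8.90 in the 4 libraries, and those of Trbv2 were 2.69, 2.24, 2.16 and 2.46. Genes with low levels are called in fewer of the cells that carry them, so shares of cells compare a gene between groups better than 2 genes with each other.

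Usage was broad in every class and library. Trbv13-2 led the Trbv genes alone in 6 of the 12 classes and libraries and tied with Trbv15 in CD4 cells of young choroid plexus. Trbv13-2, Trbv3 or Trbv19 led alone in 9 of 12. The largest share of any Trbv gene was 16.8% (95% interval 11.9 to 22.8), for Trbv13-2 in CD4 cells of aged choroid plexus, where 33 of 196 called cells used it. Trbv3 took 10.6%, 7.48%, 10.96% and 13.3% of CD4 cells in the 4 libraries, and 8.64%, 5.44%, 8.30% and 9.55% of CD8 cells. Trbv19 reached 13.6% of CD4 cells in young meninges and lay between 6.58% and 9.97% elsewhere in the CD4 and CD8 classes. Among Trav subgroups, Trav13 and Trav6 led most often. Trav13 took 19.0% (14.3 to 24.4) of CD8 cells of aged choroid plexus, and Trav6 took 20% (13.5 to 27.9) of CD4 cells there. No class or library was dominated by a V gene.

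**Figure D1:**
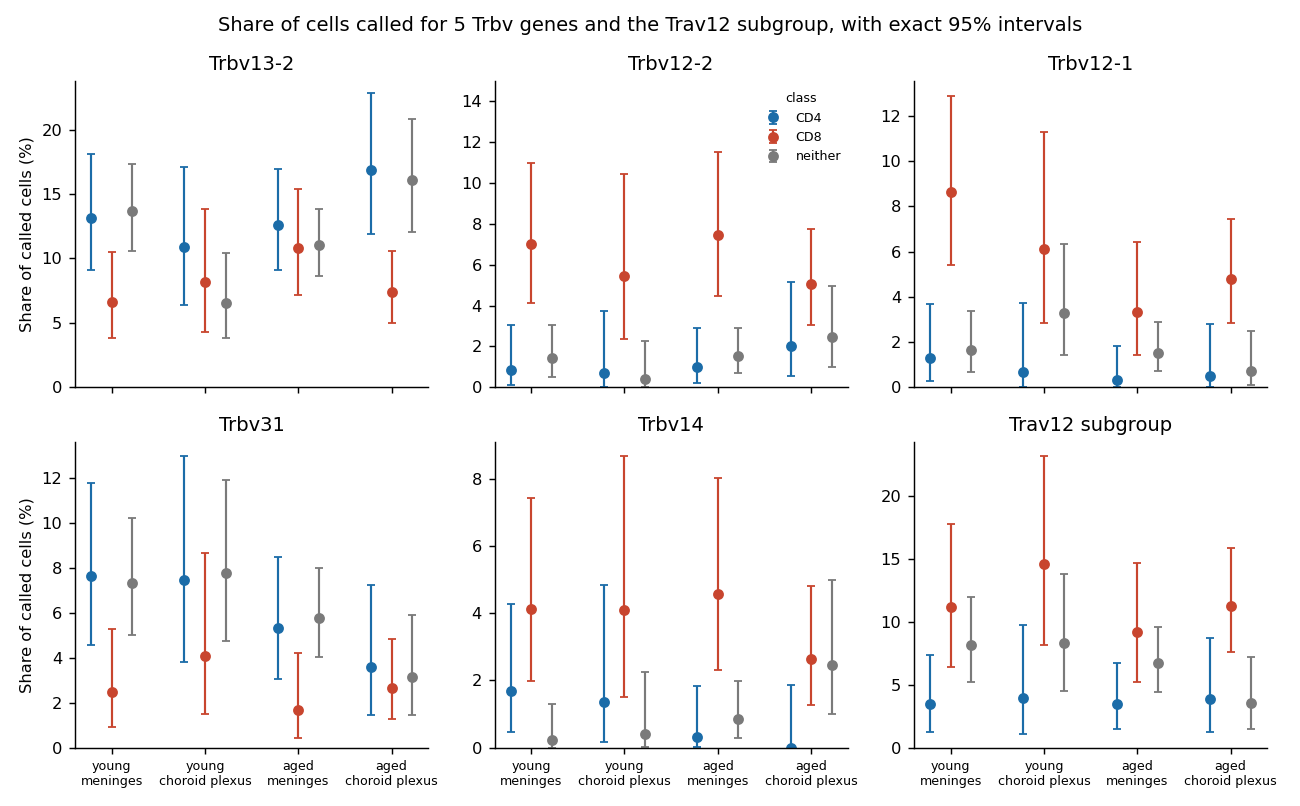
Share of called cells (percent, vertical axes) that used Trbv13-2, Trbv12-2, Trbv12-1, Trbv31, Trbv14 or the Trav12 subgroup in each library (horizontal axes), with a point for each class and exact 95% binomial intervals as bars. Trbv12-2 and Trbv12-1 sit at 3.32% or more in CD8 cells of every library and at 2.04% or less in CD4 cells.

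CD8 and CD4 cells of the same library used different V genes, and several differences had the same direction in all 4 libraries. Trbv12-1, Trbv12-2 and Trbv14 and the Trav12 subgroup were more often used by CD8 cells, and Trbv13-2, Trbv31 and the Trav14 and Trav4 subgroups by CD4 cells. The comparison lies within libraries, but CD8 cells were deeper in each, with medians of 3674, 3458, 2811 and 3117 UMIs against 3223, 2904, 2329 and 2624 in CD4 cells. Of 22 Trbv genes seen, 11 kept their sign in all 4 libraries (6 higher and 5 lower in CD8), as did 5 of 21 Trav subgroups (1 higher and 4 lower). Shares of called cells exist only for V genes, so no share over all genes stands beside these counts. Signs drawn at random would be constant over 4 libraries with a probability of 0.125. The CD8 and CD4 ranges over the 4 libraries did not overlap for 6 Trbv genes and 4 Trav subgroups. On UMI levels, which are a different measure, 6.84% of all genes had such ranges, as given further on. An exact sign-flip test over 4 libraries cannot give a two-sided p below 0.125, and the tissues of an age may come from the same mice, so no p is given. The 5 genes and 5 subgroups named here were those with the largest mean differences among those of constant sign.

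Trbv12-2 was the call in 0.847%, 0.680%, 0.997% and 2.04% of CD4 cells in the 4 libraries. In CD8 cells it was the call in 6.996%, 5.44%, 7.47% and 5.04%. The lowest CD8 library lay above the highest CD4 library, and CD8 minus CD4 averaged 5.095 percentage points ± 1.58 (SD, n = 4 libraries). Over the 4 libraries 10 of 880 called CD4 cells and 62 of 1008 called CD8 cells used Trbv12-2.

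Trbv12-1, its close relative with the same CDR3-opening bases, was the call in 1.27%, 0.680%, 0.332% and 0.510% of CD4 cells and in 8.64%, 6.12%, 3.32% and 4.77% of CD8 cells. The ranges did not overlap, and the mean difference was 5.02 points ± 1.86 (SD, n = 4). That came to 6 of 880 CD4 cells against 56 of 1008 CD8 cells. Both members of the Trbv12 subgroup that gave calls were therefore higher in CD8 cells of every library.

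Trbv14 was the call in 1.69%, 1.36%, 0.332% and 0% of CD4 cells and in 4.12%, 4.08%, 4.56% and 2.65% of CD8 cells, a mean difference of 3.01 points ± 0.827 (SD, n = 4). In aged choroid plexus 0 of 196 called CD4 cells used it. Here and below a count of 0 was taken to allow up to 3 cells, in this case a share of 1.53%. This bound is not the exact interval used for the other shares. In all, 7 CD4 cells and 37 CD8 cells used Trbv14.

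Trbv13-2 went the other way. It took 13.1%, 10.9%, 12.6% and 16.8% of CD4 cells and 6.58%, 8.16%, 10.8% and 7.43% of CD8 cells in the same order of libraries. The ranges met closely but did not overlap, and CD8 minus CD4 averaged -5.13 points ± 3.51 (SD, n = 4). Trbv31 took 7.63%, 7.48%, 5.32% and 3.57% of CD4 cells and 2.47%, 4.08%, 1.66% and 2.65% of CD8 cells, with a mean difference of -3.28 points ± 1.76. Its ranges overlapped, because the CD4 share in aged choroid plexus lay below the CD8 share in young choroid plexus. Trbv12-2 and Trbv13-2 thus differed in opposite directions although they are neighbours on the chromosome.

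Among alpha subgroups, Trav12 stood furthest apart. It was the call in 3.47%, 3.92%, 3.46% and 3.85% of CD4 cells and in 11.2%, 14.6%, 9.20% and 11.3% of CD8 cells, a mean difference of 7.89 points ± 2.04 (SD, n = 4). Over the libraries 23 of 636 CD4 cells and 72 of 641 CD8 cells used it. Most of these cells carried Trav12-2, which took 0.578%, 1.96%, 2.60% and 3.08% of CD4 cells and 8.21%, 9.38%, 6.75% and 6.45% of CD8 cells.

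The Trav14 subgroup was lower in CD8 cells of each library by a mean of -4.17 points ± 2.20 (SD, n = 4), and Trav4 by -3.88 points ± 1.65. Within Trav4, Trav4-4-dv10 took 5.78%, 3.92%, 5.19% and 5.38% of CD4 cells and 0.746%, 3.13%, 1.23% and 2.02% of CD8 cells. The rare subgroups Trav5 and Trav17 kept a negative sign with small means of -1.21 ± 1.16 and -1.14 ± 0.816 points, and Trav17 was the call in 8 CD4 cells and 1 CD8 cell. Sign constancy of Trav14, Trav4, Trav5 and Trav17 was lost when calls with 1 UMI were left out, and that of Trbv13-2, Trav4 and Trav5 when cells were thinned to an equal depth of 1000 UMIs. Without aged choroid plexus, the means of Trav5 and Trav17 were -0.64 and -0.75 points.

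**Figure D2:**
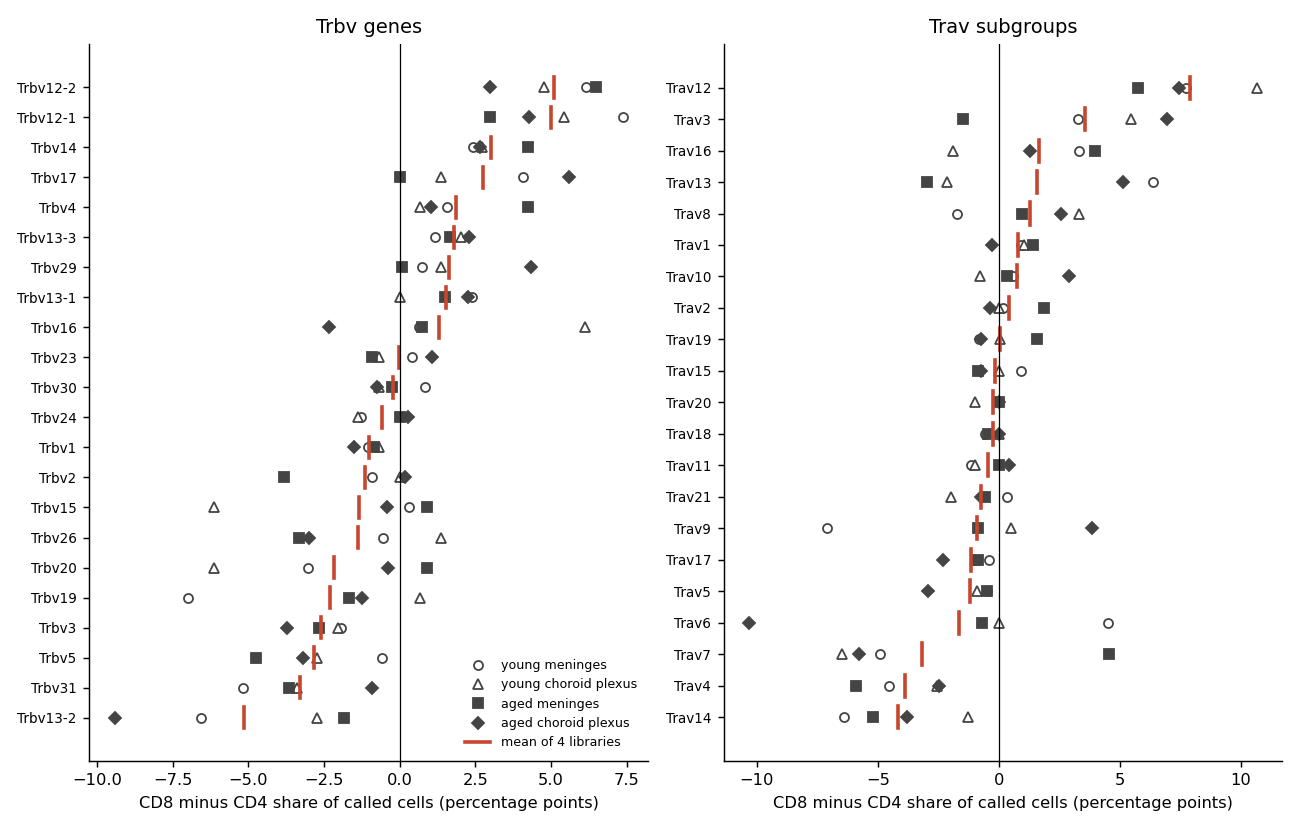
CD8 share minus CD4 share of called cells in percentage points (horizontal axes) for each Trbv gene and Trav subgroup that was called in CD4 or CD8 cells, with a symbol for each library and a red bar for the mean of 4 libraries. Trbv12-2, Trbv12-1, Trbv14 and Trav12 lie right of 0 in all 4 libraries, and Trbv13-2, Trbv31, Trav14, Trav4, Trav5 and Trav17 lie left of it.

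The same comparison on UMI levels set the V genes beside all genes. Among 9210 genes with at least 20 UMIs in the CD4 or the CD8 cells, 6.84% had CPM values whose 4 CD8 libraries lay wholly above or wholly below the 4 CD4 libraries. Of the V genes, 64 of 163 passed that minimum, and 13 of these did (20.3%), 3 higher and 10 lower in CD8. The 3 higher genes were Trbv12-1, Trbv12-2 and Trav12-2, and Trbv13-2, Trbv31, Trbv1 and Trav4-4-dv10 were among the lower ones. Trbv14 was not in this count. The V genes as a whole were also lower in CD8 cells. Summed Trbv genes stood at 1877, 1744, 1714 and 1554 CPM in CD4 cells of the 4 libraries and at 1526, 1296, 1518 and 1099 CPM in CD8 cells, and summed Trav genes at 714, 608, 794 and 569 CPM against 399, 404, 565 and 435 CPM.

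Cells with neither coreceptor transcript resembled CD4 cells in their beta V genes. Likeness was measured by the Morisita overlap index in its unbiased form, which is about 1 for equal usage and can pass 1 by sampling. Between the neither and CD4 classes of a library it was 0.994, 0.980, 0.996 and 1.01, and between neither and CD8 it was 0.850, 0.948, 0.950 and 0.890. Between CD4 and CD8 it was 0.858, 0.925, 0.922 and 0.886. By beta V genes, neither cells were thus nearer to CD4 than to CD8 cells in all 4 libraries, while libraries of the same class had likenesses of 0.918 to 1.02. By alpha subgroups the order was not the same throughout. Neither and CD4 cells had 0.992, 1.03, 0.963 and 0.986, and neither and CD8 cells 0.971, 1.03, 1.02 and 0.917, so that in aged meninges neither cells were nearer to CD8 cells.

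Of the 10 genes and subgroups named for CD8 against CD4, 7 also had CD8 cells on the same side of neither cells in 4 of 4 libraries, the exceptions being Trbv13-2, Trav4 and Trav5 (3 of 4 each). Trbv12-2 was lower in neither than in CD8 cells by a mean of -4.79 points ± 1.51 (SD, n = 4 libraries), Trbv12-1 by -3.92 ± 2.25 and Trbv17, which was not among the 10, by -3.11 ± 2.07, each in 4 of 4 libraries with ranges that did not overlap. Trbv31 was higher in neither than in CD8 cells in 4 of 4, by 3.30 ± 1.93. Against CD4 cells, Trbv26 was lower in neither cells in 4 of 4 libraries, by -1.66 ± 0.628 points. Trbv12-1 lay a little above CD4 cells in 4 of 4, by 1.09 ± 1.10 points. For Trav12 the neither class lay between, at 8.16%, 8.33%, 6.72% and 3.59%, below CD8 in 4 of 4 libraries and above CD4 in 3 of 4.

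CD8 cells used their Trbv genes more evenly than CD4 and neither cells. Evenness was given as an effective number, the number of equally used genes that would give the same chance that a pair of cells shares a gene. It was 18.3, 17.6, 16.8 and 17.5 in CD8 cells of the 4 libraries. In CD4 cells it was 13.5, 16.3, 14.5 and 12.4, and in neither cells 14.1, 15.8, 15.7 and 13.3. The CD8 value was the highest of the 3 classes in 4 of 4 libraries, and was so under each of 8 other ways of calling or filtering cells. Scaled to 50 cells, 17.2 to 17.98 Trbv genes were seen in CD8 cells, 15.5 to 17.4 in CD4 cells and 16.05 to 17.0 in neither cells. In young choroid plexus the CD8 and CD4 values on that scale were both 17.4.

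Age did not bring a narrower Trbv usage in a steady way. From young to aged libraries the effective number went from 13.5 to 14.5 in CD4 cells of meninges and from 16.3 to 12.4 in those of choroid plexus. In CD8 cells it went from 18.3 to 16.8 in meninges and from 17.6 to 17.5 in choroid plexus. For neither cells the values were 14.1 and 15.7 in meninges and 15.8 and 13.3 in choroid plexus. With 1 library per age these have no replicate check. For Trav genes the effective number lay between 33.3 and 50.2 and, by subgroup, between 9.59 and 12.7. CD8 cells were lowest of the classes by Trav gene in 3 of 4 libraries, the exception being aged meninges.

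**Figure D3:**
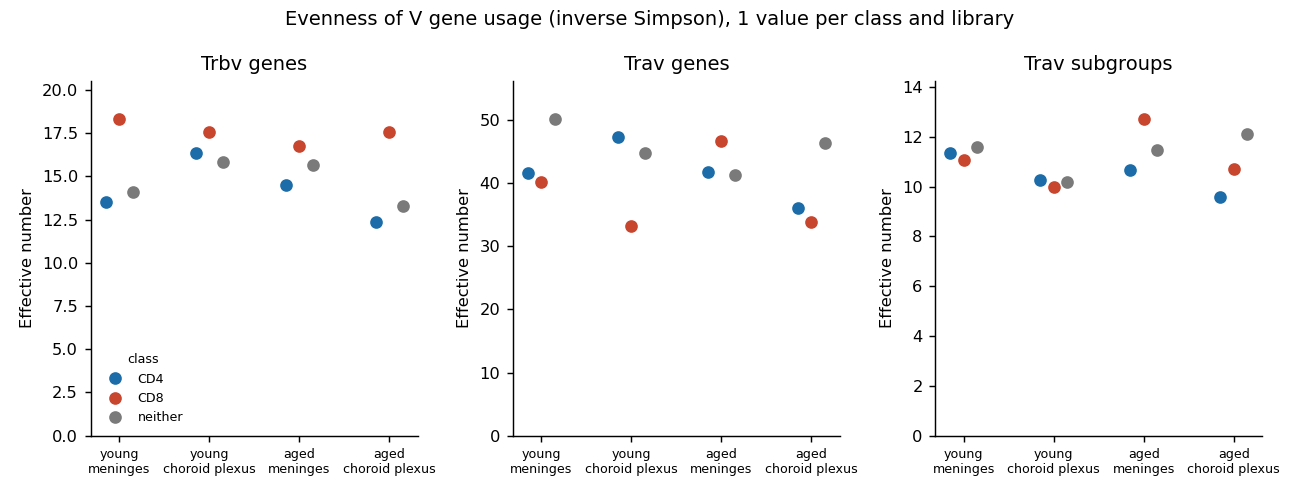
Effective number (inverse Simpson, vertical axes from 0) of Trbv genes, Trav genes and Trav subgroups by library, with a point for each class and no error bars. CD8 cells have the highest Trbv value in each library, from 16.8 to 18.3, against 12.4 to 16.3 in CD4 cells.

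Few shares of single V genes had young and aged 95% intervals that were apart. In CD4, CD8 and neither cells, 22, 22 and 23 Trbv genes and 21, 19 and 19 Trav subgroups were seen, and each was compared in both tissues. The intervals were apart for 3 values. Trbv15 was 10.9% of CD4 cells in young choroid plexus and 2.55% in aged, Trbv13-2 was 6.56% of neither cells in young choroid plexus and 16.1% in aged, and Trav5 was 0.355% of neither cells in young meninges and 3.73% in aged. For each of these the intervals overlapped in the other tissue, and the difference between tissues was not tested. Overlap does not show that a share was unchanged. In meninges, Trbv2 was 2.54% of young and 7.97% of aged CD4 cells, with intervals that overlapped. Trbv5 was 5.76% of young and 1.24% of aged CD8 cells there, also with overlap.

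Trbv31 was lower in the aged library in all 6 classes and tissues. In CD4 cells it was 7.63% and 5.32% in young and aged meninges and 7.48% and 3.57% in young and aged choroid plexus. In neither cells it was 7.33% and 5.78%, then 7.79% and 3.15%, and in CD8 cells 2.47% and 1.66%, then 4.08% and 2.65%. Each of these pairs had intervals that overlapped. For other genes the size often came from a single tissue. In CD4 cells aged minus young was 0.37 points in meninges and 5.78 in choroid plexus for Trbv3, and 5.43 and 0.68 for Trbv2. In CD8 cells it was 1.70 and 5.12 for Trbv4, -0.35 and -6.94 for Trbv16, and -5.32 and -1.35 for Trbv12-1. In neither cells it was -2.44 and -1.65 for Trbv15, and 0.65 and 2.47 for Trbv13-1. These were the Trbv genes with the largest mean differences of equal sign in both tissues.

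Among alpha subgroups, aged minus young in CD4 cells was -3.34 points in meninges and -3.23 in choroid plexus for Trav9, and 2.58 and 3.33 for Trav6. Trav11 was the call of 2 of 173 and 1 of 102 young CD4 cells and of 0 of 231 and 0 of 130 aged ones, and a count of 0 allows 1.30% and 2.31% there, above the young shares, so no difference was detectable at this depth. In CD8 cells aged minus young was -2.66 and -6.99 for Trav6, -1.99 and -3.29 for Trav12, and 2.09 and 1.81 for Trav7. In neither cells it was -1.44 and -4.74 for Trav12, -2.47 and -1.54 for Trav14, and 3.38 and 1.54 for Trav5. The sign of Trav12 in CD8 cells turned when calls with 1 UMI were left out, and those of Trav6 in CD4 cells and Trav7 in CD8 cells turned when shares of UMIs replaced shares of cells.

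UMI levels of V genes were also compared between ages, bearing in mind that the UMIs of a V gene come from the few cells that carry it. A gene was counted as differing by size, without a test, when the library with more of it held 20 UMIs or more and log2(CPM + 10) differed by 1 or more between the libraries. In CD4 cells 6.09% of all genes passed it in meninges and 8.75% in choroid plexus. Among V genes that reached 20 UMIs, 5 of 37 (13.5%) and 7 of 21 (33.3%) passed. In CD8 cells the shares were 4.99% and 3.41% of all genes against 2 of 25 (8%) and 6 of 31 (19.4%) V genes. In neither cells they were 4.9% and 6.4% against 3 of 50 (6%) and 9 of 24 (37.5%). In CD8 and neither cells of meninges the V gene share was thus near that of all genes. It was further above it in choroid plexus, where the young library had the fewest cells. With a pseudocount of 50 CPM in place of 10, only 0, 1 and 0 V genes passed in meninges and 2, 1 and 0 in choroid plexus (CD4, CD8 and neither). Their median log2 ratios were between -0.40 and 0.29, and those of all genes between 0.03 and 0.15, so there was no shared direction.

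Trbv15 in CD4 cells of choroid plexus was 350 CPM in the young library and 102 in the aged (log2 ratio -1.68), from 186 and 74 UMIs. Trbv16 in CD8 cells of choroid plexus was 243 and 67.7 CPM (-1.70). Trbv12-1 in CD8 cells of meninges was 132 and 37.6 CPM (-1.58). Trbv31 passed the rule in CD4 cells of meninges, at 150 and 59.3 CPM (-1.21), and in neither cells of choroid plexus, at 103 and 40.2 CPM (-1.17). The largest log2 ratio, -2.69 for Trbv17 in CD4 cells of choroid plexus, rested on 67 UMIs in the young library, where the gene was the call of 2 of 147 cells. Such a value describes a handful of cells.

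Pairs of a Trav and a Trbv gene were diverse. In 568 paired CD4 cells there were 382 distinct gene pairs, in 560 CD8 cells 373, and in 901 neither cells 526. Cells in a pair that recurred within their class and library made up 27.3%, 24.5%, 32.8% and 17.0% of paired CD4 cells in the 4 libraries. In CD8 cells the shares were 23.8%, 11.8%, 25.7% and 34.6%, and in neither cells 33.1%, 18.8%, 42.3% and 35.9%. These shares grow with the number of cells, so each was set beside a reference share. It is the share expected for as many cells drawn at the observed gene shares, with alpha and beta genes combined at random. A gene called in 1 cell adds to it, although re-pairing the same cells could not make that gene recur. The reference can therefore lie above the value for re-paired cells. That reference was 29.6%, 16.7%, 30.5% and 25.6% for CD4 cells, 19.96%, 20.3%, 22.1% and 31.2% for CD8 cells and 33.3%, 24.3%, 40.1% and 30.8% for neither cells. It lay inside the 95% interval of the observed share in 11 of 12 classes and libraries. That binomial interval treats cells as independent, whereas cells of a recurring pair enter the share together. It is therefore a rough guide and not a test. The other value was CD4 cells of aged choroid plexus, at 17.0% (10.5 to 25.2) against 25.6%. The observed share was above the reference in 7 of 12. Another measure was the chance that a couple of cells shares a pair, divided by the value for random combination. It was above 1 in 9 of 12 classes and libraries and ranged from 0.745 in CD8 cells to 2.59 in CD4 cells of young choroid plexus. In CD8 cells it was 2.15, 0.745, 1.83 and 2.12 in the 4 libraries, with no interval. In CD4 cells of aged choroid plexus this ratio was 1.35, although the share of cells in recurring pairs there lay below its reference.

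**Figure D4:**
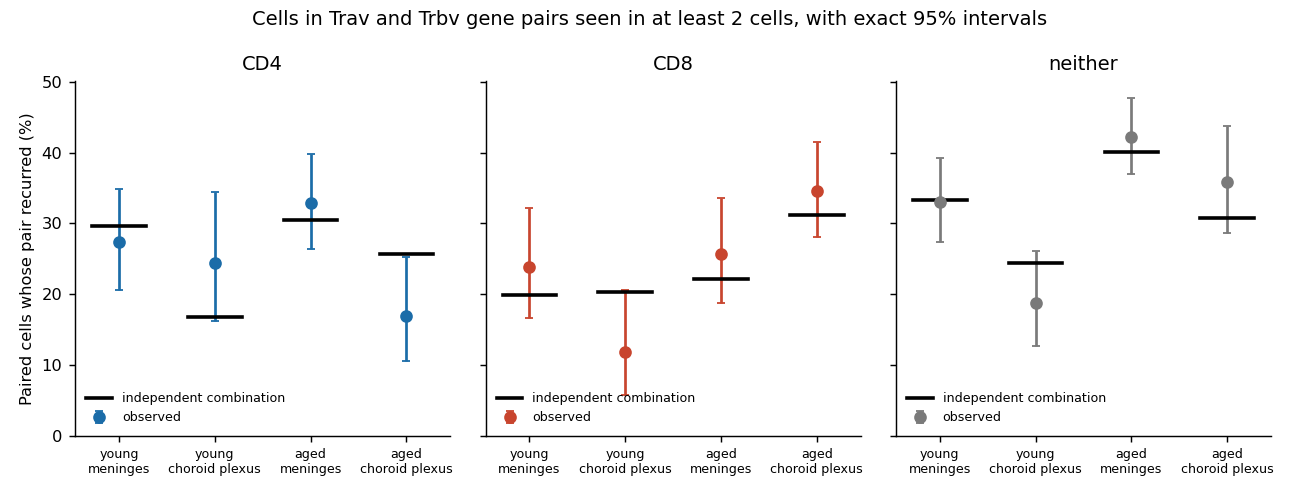
Percent of paired cells whose Trav and Trbv gene pair recurred in the same class and library (vertical axis; points with exact 95% binomial intervals), beside the share given by independent combination of the same genes (black bars). The reference lies inside the interval in 11 of 12 cases and just above it in CD4 cells of aged choroid plexus. The intervals treat cells as independent, which cells of a recurring pair are not.

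The pairs seen most were small and mostly joined common genes. In CD4 cells Trav6-7-dv9 with Trbv19 was found in 8 cells over 4 libraries, and Trav4-4-dv10 with Trbv13-2 in 7 over 4. In CD8 cells Trav13-1 with Trbv1 was found in 7 cells, and Trav13-1 with Trbv12-2 in 6. In neither cells Trav10 with Trbv13-2 and Trav6-7-dv9 with Trbv19 were found in 8 cells each. The same Trav6-7-dv9 and Trbv19 pair was therefore among the most frequent in both CD4 and neither cells. Both genes are common by themselves.

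Only 5 pairs reached 5 cells within a class and library, all of them in aged libraries. In CD8 cells of aged choroid plexus, Trav13-1 with Trbv19 was found in 6 of 205 paired cells, and Trav9-1 with Trbv17 and Trav13-1 with Trbv1 in 5 each. In neither cells Trav10 with Trbv13-2 was found in 6 of 167 cells of aged choroid plexus and Trav13-1 with Trbv13-2 in 5 of 336 cells of aged meninges. These pairs were picked for their size among all pairs, so the counts are a description. Trav13-1 with Trbv19 and Trav9-1 with Trbv17 were not seen in CD8 cells of any other library. The aged libraries also held more cells, 205 paired CD8 cells in aged choroid plexus against 85 in young, so their larger pairs cannot be set directly beside those of young libraries.

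Beta constant genes give a further, coarse view of such pairs, since a cell joins its V gene to either Trbc1 or Trbc2 and a clone keeps that choice. UMIs of both were seen in 264, 167, 230 and 226 T cells of the 4 libraries. The constant gene of a cell was therefore not always resolved. The 5 cells with Trav9-1 and Trbv17 comprised 3 with Trbc1 UMIs alone, 2 with UMIs of both and none with Trbc2 alone. Those with Trav13-1 and Trbv19 comprised 3 with Trbc2 alone, 1 with both and 2 with neither. The cells with Trav13-1 and Trbv1 comprised 1 with Trbc1 alone, 1 with Trbc2 alone, 2 with both and 1 with neither. Those with UMIs of a single constant gene thus differed in it. A UMI of Gzmb, a granule protease of cytotoxic cells, was seen in 4 of the 5 Trav9-1 and Trbv17 cells, in 1 of the 6 with Trav13-1 and Trbv19 and in 0 of the 5 with Trav13-1 and Trbv1, compared with 17.1% of CD8 cells in that library. Gzmk, another granzyme, was seen in 4 cells of each pair, compared with 52.4%. S100a6, Ccl5, Nkg7 and Cxcr6 were seen in all 16 cells of these pairs, compared with 89.0%, 93.2%, 93.7% and 67.9% of the class. Cxcr3 was seen in 6 of the 16, and in none with Trav13-1 and Trbv19, compared with 43.8%. Of the naive-cell genes, Ccr7 was seen in 0, Lef1 in 2 and S1pr1 in 3 of the 16 cells, compared with 9.51%, 17.1% and 17.1% of the class. Tcf7, Klf2 and S100a4 were not looked at in these cells. Class values cover all cells of the class, with or without V gene calls. The 5 neither cells with Trav13-1 and Trbv13-2 comprised 2 with Trbc1 alone and 1 with Trbc2 alone. The 6 with Trav10 and Trbv13-2 comprised 1 and 2. S100a6, Ccl5, Nkg7 and Cxcr6 were seen in 4, 3, 3 and 4 of the former. For neither cells of aged meninges the shares were 70.2%, 47.7%, 39.0% and 28.9%. In the latter they were seen in 3, 3, 3 and 1, compared with 74.8%, 38.9%, 28.9% and 31.1%. Over all pairs, couples of cells that shared their V pair also shared their constant gene in 60.6% (CD4), 65.6% (CD8) and 58.8% (neither) of cases, against 69.3%, 65.8% and 71.7% for any couples of the same libraries. The value for the same V pair was the higher in 4 of 5 classes and libraries of young mice and in 1 of 6 of aged mice, each from at most 22 couples. CDR3 sequences and joining genes, which tell clones apart, were not analysed here.

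The constant genes themselves also differed between the young and aged libraries. Trbc2 was lower in the aged library in 6 of 6 classes and tissues with Poisson intervals apart, by log2 ratios of -0.46 to -0.62. In all T cells it stood at 523 CPM (interval 500 to 548) and 524 CPM in young meninges and choroid plexus and at 364 and 343 CPM (324 to 362) in the aged ones. Trbc1 was lower in 5 of 6, with intervals apart in 1. The share of cells with Trbc1 alone among those with a single constant gene was 12.1% and 16.6% in the young libraries and 23.4% and 20.8% in the aged. Trac, the alpha constant gene, was higher in 6 of 6 by log2 ratios of 0.13 to 0.56, with intervals apart in 3. The CD3 chain Cd3g was higher in 6 of 6 with intervals apart, by 0.24 to 0.50, and Cd3d and Cd3e were higher in 6 of 6 with intervals apart in 2 and 3. None of these passed the rule of size. The classes of a tissue come from the same young and aged library, so the 6 comparisons are not independent. How many of all genes had intervals apart is not given here, and the part of the changed makeup of the T cells was not tested.

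Summed over all T cells, Trbv genes stood at 1784, 1562, 1608 and 1244 CPM in the 4 libraries, and Trav genes at 544, 496, 702 and 513 CPM. The beta V level was thus lower in the aged library of each tissue, as Trbc2 was. The alpha V level was higher in aged meninges, while its intervals overlapped in choroid plexus (467 to 527 and 490 to 536 CPM).

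**Figure D5:**
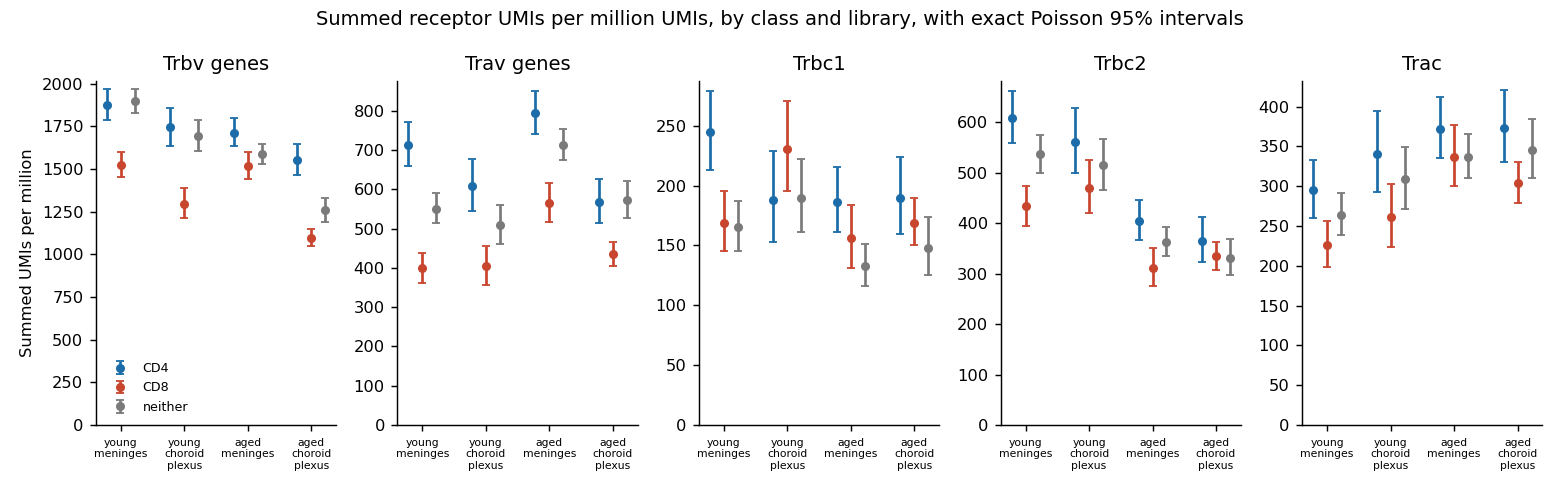
Summed level in CPM (vertical axes from 0) of Trbv genes, Trav genes, Trbc1, Trbc2 and Trac in each class and library, with exact 95% Poisson intervals. Trbc2 is lower and Trac higher in the aged library of each class and tissue, and CD8 cells have the lowest Trbv level in each library.

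Alpha chains of invariant T cells were rare. The Trav11 subgroup was the call in 9 of 2382 cells with a Trav call (0.378%, 95% interval 0.173 to 0.716). Natural killer T cells use its member Trav11, which was the call of 5 of these cells. Trav11d was the call of 1 cell, and Trav11n, annotated as a pseudogene, of 3. Of the 8 cells of the subgroup with a Trbv call 3 used a Trbv13 gene, 1 of them Trbv13-2. These partners were not split by copy. Trav11 shares all of its windows of 50 bases with another V gene, so reads of it may be missing from the counts. Trav1, which mucosal-associated invariant T cells use, was the call in 21 cells (0.882%, 0.547 to 1.34), of which 10 came from aged choroid plexus. Of 19 Trav1 cells with a Trbv call, 2 used Trbv19 and 3 used a Trbv13 gene, 2 of them Trbv13-2. Of the 9 cells of the Trav11 subgroup 1 had a UMI of Zbtb16, the transcription factor of innate-like T cells. None of the 21 Trav1 cells did. Klrb1c was seen in 2 and 1 of these cells, and Il2rb in 7 and 12. Any of these 3 genes was seen in 20.8% to 47.4% of all T cells of a library.

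Constant genes of the gamma and delta chains were seen in 4.63%, 4.85%, 18.9% and 32.6% of CD8 cells in the 4 libraries. Of these cells 91.7%, 100%, 96.2% and 87.0% also had a Trbv UMI, against 97.6%, 92.4%, 91.7% and 85.6% of the other CD8 cells. The gamma constant genes Tcrg-C2 and Tcrg-C4 were higher in aged CD8 cells, by log2 ratios of 2.37 and 1.31 in meninges and 2.33 and 2.52 in choroid plexus. Beta V transcripts were thus about as frequent in CD8 cells with such UMIs as in those without.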

How the data were processed

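T cells sorted by flow cytometry were profiled with the 10x 5′ gene expression kit. The authors deposited 1 matrix of raw UMI counts per library, made per the labels with Cell Ranger (5.1.0 in the submitters' processing notes, 3.1.0 in the matrix headers) and STAR on mm10. No V(D)J-enriched library was analysed here, so V usage rests on V gene UMIs alone. A read that fits several genes is usually dropped by such a counter, which empties near-identical Trav copies. No Traj or Trbj gene had a UMI.

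Cells with 200 to 7000 genes and at most 5% mitochondrial UMIs were kept, and doublets were removed with Scrublet (scanpy 1.11.5). It marked 1 to 13 cells per library, whereas the study's methods name DoubletFinder. Cells tied for the leading gene got no call. Shares have exact Clopper-Pearson and levels exact Poisson 95% intervals, which cover counting error only. The effective number is the unbiased inverse Simpson index. The share of cells in recurring pairs under independent combination was computed in closed form from observed gene shares, as a reference, not a test. With 1 library per age and tissue no p-value between ages was made. A gene differed by size when its log2(CPM + 10) moved by 1 or more and 20 UMIs or more stood behind the larger value.

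Named were Trbv genes and Trav subgroups used by at least 5% of called cells in a class and library with 50 or more called cells, the largest CD8 minus CD4 differences of equal sign in all 4 libraries (5 per family), the largest aged minus young differences of equal sign in both tissues (3 per family and class), the 5 most frequent pairs per class, pairs of at least 5 cells, Trav11 and Trav1, and the constant, CD3 and coreceptor genes. The members and lists were chosen with earlier results of these data known. The scripts were tested on simulated data. Alternatives were calls of at least 2 UMIs, shared ties, cells with several Trbv genes left out, thinning to 1000 UMIs, stricter doublet removal, no cell filter, gamma-delta cells left out, CD8 by Cd8b1 alone, Trav copies merged, and other pseudocounts and minima. Leaving out each library from the CD8 minus CD4 means was added after the values were seen. GENCODE vM21 (GRCm38) matched all 163 symbols. Python 3.11.15, numpy 2.4.6, pandas 2.3.3 and scipy 1.17.1 were used.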

Additional observations from a re-analysis of the deposited data

Results flagged for a closer look

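Cells with UMIs of Cd4 and of a Cd8 gene were used in no comparison by class and entered only the values for all T cells. A second Trbv gene with 2 or more UMIs was seen in 25.0% of them in young meninges (95% interval 7.27 to 52.4), 44.4% in young choroid plexus (21.5 to 69.2), 43.3% in aged meninges (25.5 to 62.6) and 36.4% in aged choroid plexus (20.4 to 54.9). In the CD4, CD8 and neither classes the share was 4.20% to 13.9%. The median UMI count of these cells was 3379, 5980, 3944 and 4978, against 2312 to 3203 in all T cells of the libraries, and the part of that depth in the result was not tested.

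Among cells without a CD3 UMI, which were also left out, 4 of 28 in aged meninges had a Trbv UMI, above the 3 that a count of 0 allows.

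Trbv15 in CD4 cells was 0.688 points higher in aged than in young meninges and 8.33 points lower in aged choroid plexus, so meninges minus choroid plexus came to 9.02 points. Trbv13-2 in neither cells differed between the tissues by -12.2 points on the same measure. Both have opposite directions in the 2 tissues, and the difference was not tested, as each value rests on 1 library per age.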

How the results depend on the processing

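The order of Trbv evenness (CD8 above CD4 and above neither in 4 of 4 libraries) held under each of the 8 other ways of calling or filtering cells, as did the constant sign of Trbv12-2, Trbv12-1, Trbv31 and Trbv14. Of the 10 V genes and subgroups named for a constant CD8 minus CD4 sign, 6 kept it with calls of at least 2 UMIs (Trav14, Trav4, Trav5 and Trav17 lost it), 7 after thinning to 1000 UMIs (Trbv13-2, Trav4 and Trav5 lost it), 8 by shares of UMIs (Trav4 and Trav5), and 9 with ties shared (Trav17) or cells with a second Trbv gene left out (Trav5). Values below run through young meninges, young choroid plexus, then aged meninges, aged choroid plexus, and within each through CD4, CD8 and neither cells. With Trav genes merged into subgroups the effective number was 11.3, 11.1, 11.6, then 10.3, 10.0, 10.2, then 10.7, 12.7, 11.5, then 9.59, 10.7, 12.1, and the share of cells in recurring pairs 63.4%, 41.3%, 68.9%, then 51.1%, 28.2%, 56.9%, then 63.7%, 46.5%, 74.1%, then 50.9%, 62.9%, 63.5%, since fewer names give fewer pairs. Thinned, with fewer called cells, the recurring share was 14.9%, 14.0%, 17.0%, then 9.09%, 0%, 9.09%, then 21.7%, 10.7%, 27.1%, then 10.2%, 26.2%, 15.9%. With at least 2 UMIs it was 19.1% (CD4) and 24.6% (neither) in young meninges, 14.9% (CD4) and 4.35% (CD8) in young choroid plexus, 13.8% (CD8) and 27.9% (neither) in aged meninges and 9.62% (CD4) and 22.2% (neither) in aged choroid plexus. With ties shared it was 34.2% (CD8) and 48.7% (neither) in aged meninges and 44.6% in CD8 cells of aged choroid plexus, and without gamma-delta cells 5.06% in CD8 cells of young choroid plexus. The count of V genes past the rule of size depended on its settings. With a pseudocount of 1 CPM it was 10 (CD4), 6 (CD8) and 11 (neither) in meninges and 13 in CD8 cells of choroid plexus. With 50 CPM it was 0, 1 and 0 (CD4, CD8, neither) in meninges and 2, 1 and 0 in choroid plexus. With a minimum of 5 UMIs, and with none, it was 8 and 6 (CD4, CD8) in meninges and 16 in CD4 cells of choroid plexus, and after thinning 1 and 1 in meninges and 2 (CD4) and 3 (neither) in choroid plexus. Signs reversed for Trav12 in CD8 cells, aged minus young, with at least 2 UMIs (0.125 points), Trav5, CD8 minus CD4, after thinning (0.183), Trav6 in CD4 cells, aged minus young, by shares of UMIs (-0.367) and Trav7 in CD8 cells likewise (-0.877). The cause was not tested. CD8 minus CD4 was taken within each library and is thus paired. Leaving out each library in turn, chosen after seeing the data, gave means of -6.23 to -3.70 points for Trbv13-2, 4.64 to 5.79 for Trbv12-2, 4.23 to 5.69 for Trbv12-1, -4.07 to -2.66 for Trbv31, 2.60 to 3.20 for Trbv14 and 6.97 to 8.61 for Trav12, and for Trav5 and Trav17 it moved the mean by over 1.5 times without aged choroid plexus (-0.64 and -0.75). Between ages no library could be left out or paired, as each age and tissue had 1. At this depth a count of 0, taken to allow up to 3 cells, allows shares of 0.510% to 2.04% of cells called for a Trbv gene.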
